A study of Mus musculus with 18 samples.

Results

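The 110 gene models described here had lower mean levels with lipopolysaccharide (LPS) in mouse 3T3-L1 adipocytes carrying either of 2 short hairpin RNAs. They were also chosen to keep more than 0.67 times the control mean with Irf3 overexpression, though 20 kept less than 0.8 times. They were drawn from 27473 gene models and chosen by ratios of mean CPM, a library's counts scaled to a common total, here the total outside chromosome M, the mitochondrial genome. A member had a mean with LPS of at most 0.67 times the mean without it in shLuc cells and again in shIrf3 cells. It also had at least 2 CPM in both of these groups without LPS, and an Irf3_2D mean above 0.67 times the EGFP mean. The 2 CPM minimum was met by 11351 gene models, and both LPS ratios by 129 of them. The Irf3_2D bound removed 16, and 3 more lay in a set left out of the rule, which names 3 identifiers and 2 stretches of mouse build mm9, on chromosomes 17 and 13. The members were selected on their LPS ratios, so these are described without a test.

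3T3-L1 cells are mouse fibroblasts that differentiate into fat-storing cells in culture. RNA was sequenced from 18 libraries of such adipocytes at passage 15, in 6 groups of 3, after lentiviral transduction for 6 days. One arm held EGFP, a fluorescent protein control, and Irf3_2D, labelled as overexpressing Irf3, with 2D not explained in the labels. The other arm held shLuc, the control hairpin, and shIrf3, the hairpin against Irf3, each without LPS and with LPS for a further 6 days. Whether the cells without LPS stayed in culture as long is not stated, so LPS and culture time cannot be told apart. Separate cultures for the libraries of a group are not stated either, and p-values then measure the spread between libraries alone, which may be technical.

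LPS, a component of the outer membrane of Gram-negative bacteria, is sensed by Toll-like receptor 4. One branch of signalling below this receptor activates NF-kappaB and inflammatory genes, and the other activates the transcription factor IRF3, which drives type I interferon and interferon-induced genes. Adipocytes carry this receptor, and lasting exposure to LPS is used to model inflamed fat, where inflammatory genes rise and many genes of the differentiated state fall.

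Gene models in the deposited table have UCSC identifiers, and 0 of the 27473 occurred in the name, gene or promoter tables used here. Members are therefore given by identifier, at most 2 in each direction for a comparison, or by position on mm9. Their functions, the gene lists, the markers of adipocytes and other cell types and the count of Irf3 itself need symbols and were not examined. In these bulk libraries, fewer cells of a type and less RNA per cell cannot be told apart.

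Total counts ran from 22143302 to 34368259 per library, and the lowest count of any member in any library was 7. The chromosome M share was 14.2% for replicate 1 of shLuc and 2.88% for replicate 2. With LPS it was 4.37% ± 0.158 (SD, n = 3) for shLuc and 6.10% ± 0.284 for shIrf3. Its part in the results was not tested as such. Runs without chromosome M gene models, without shLuc replicate 1 and with CPM over all counts are given further below. The chi-square between replicates, divided by its degrees of freedom, was 55.9 to 349.9 for shLuc pairs and 3.38 to 15.6 for pairs of the other hairpin groups.

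Summed over the 110 members, the share of counts outside chromosome M was lowest in shLuc with LPS and highest in shIrf3. It was 1.26%, 1.27% and 1.33% in the shLuc libraries and 0.643%, 0.714% and 0.748% in those with LPS. The shIrf3 libraries stood at 1.76%, 1.78% and 1.81%, and those with LPS at 0.891%, 1.08% and 1.15%. The EGFP libraries held 1.10%, 1.35% and 1.401% and the Irf3_2D libraries 1.30%, 1.34% and 1.48%. Within the hairpin arm the libraries with LPS lay below those without it, a direction that the rule fixed for the means of each hairpin. The EGFP, Irf3_2D and shLuc ranges overlapped, and the lowest EGFP library lay below the highest of shIrf3 with LPS. The sum gives most weight to the highest members. The highest had 3157 CPM in shLuc and 5148 in shIrf3, against member medians of 22.9 and 30.9 CPM. Its LPS ratios were 0.667 in shLuc and 0.642 in shIrf3, so the sum leans in part on a member just inside the threshold of 0.67.

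**Figure D1:**
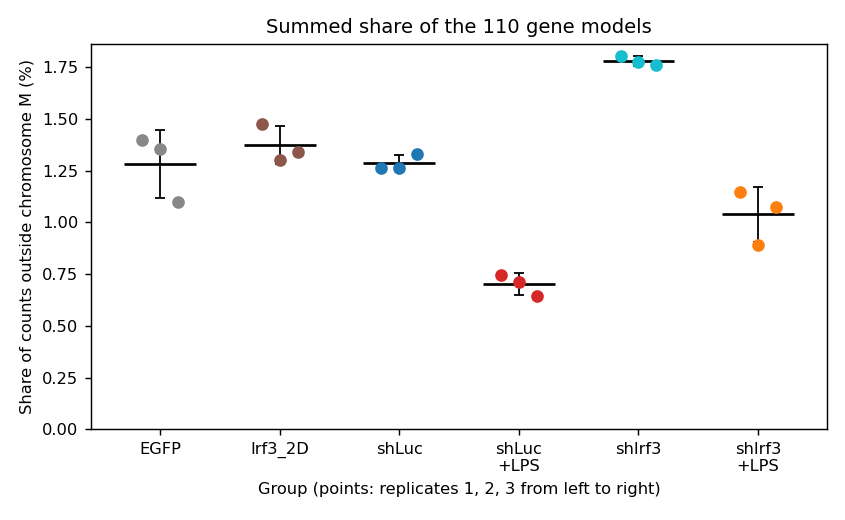
Percent of counts outside chromosome M that fell on the 110 members, by group, with 1 point per library and the mean and SD of 3. The 3 shIrf3 libraries are highest, at 1.76% to 1.81%, and the 3 shLuc libraries with LPS lowest, at 0.643% to 0.748%.

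Levels in shLuc ran from 2.04 to 3157 CPM. In this group, 34 members had under 10 CPM, 56 had 10 to 100 CPM and 20 had at least 100 CPM, with a median of 22.9 CPM, against 34.9 CPM for the 11351 gene models that met the same minimum. The 8 members above 500 CPM in shLuc lay on chromosomes 1, 6, 11, 13 and 16. The highest was a 49-exon gene model on chromosome 6 (4455697 to 4491543), with 3157 ± 37.3 CPM (SD, n = 3) in shLuc and 2107 ± 131 with LPS. It had 5148 ± 134 CPM in shIrf3 and 3305 ± 412 with LPS. The next, a 51-exon gene model on chromosome 1 (71632097 to 71709417) with exons listed on both strands, had 1430 ± 487 CPM in shLuc and 665 ± 35.1 with LPS. Per kilobase of exon, the highest level in shLuc was 849 CPM per kb, in a single-exon gene model of 606 bases on chromosome 6 (36664929 to 36665534).

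The LPS ratio had a median of 0.532 in shLuc, from 0.296 to 0.667, and of 0.561 in shIrf3, from 0.312 to 0.667. Over the 11351 gene models the medians were 1.02 and 1.01. Mean levels were at or below 50% of those without LPS in 47 members in shLuc, 26 in shIrf3 and 22 in both. The 3 members nearest to the threshold had 0.667 as the higher of their ratios, and the nearest 3 gene models outside had 0.673 to 0.675. The lowest Irf3_2D ratios kept were 0.690, 0.690 and 0.693 and the highest left out were 0.607, 0.656 and 0.667. At the minimum level, 2.04 to 2.15 CPM were kept and 1.496 to 1.66 CPM left out. All 110 members passed the filter on low counts of the edgeR fits. edgeR's quasi-likelihood test called 101 of them lower in shLuc (background 4.45% of 14970 gene models) and 96 in shIrf3 (background 3.84%). The CPM of the groups with and without LPS did not overlap for 98 members in shLuc (background 7.89%) and 110 in shIrf3 (background 14.1%). The rule used these contrasts, and nothing is read from the counts.

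**Figure D2:**
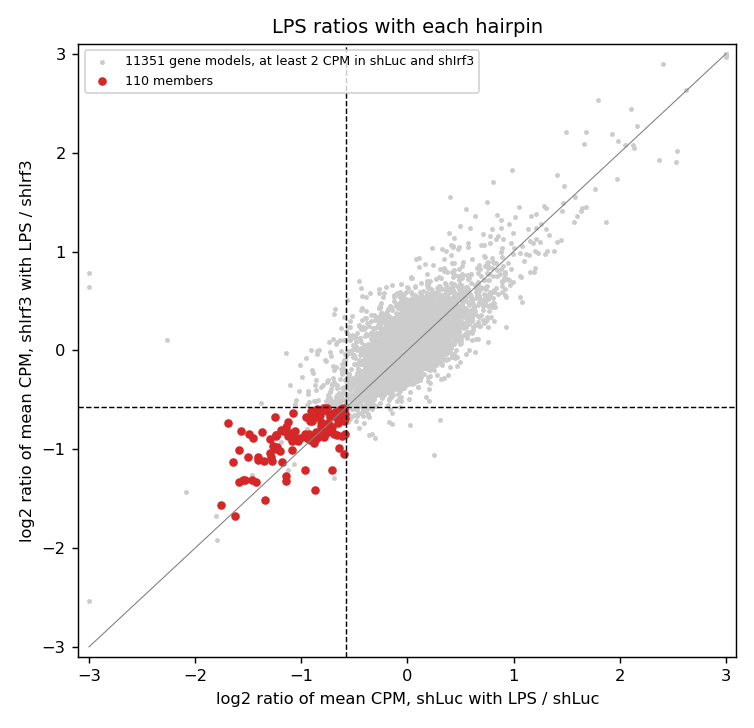
The log2 ratio of mean CPM with and without LPS in shLuc (x axis) and in shIrf3 (y axis), for the 110 members in red and 11351 gene models of at least 2 CPM in grey, with values beyond 3 drawn at 3. Dashed lines mark the ratio of 0.67. Of the members, which were chosen on these ratios, 80 lie above the diagonal (a larger drop in shLuc) and 30 below it.

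The largest drop was that of uc007qjr.1, on the plus strand of chromosome 13 (49703440 to 49719869, 7 exons). Its CPM were 114, 124 and 133 in shLuc and 25.9, 38.6 and 45.5 with LPS. In shIrf3 they were 179, 187 and 191, and with LPS 55.6, 63.6 and 69.2. No library with LPS came near one without it. The log2 fold change with LPS was -1.80 ± 0.15 (SE) in shLuc and -1.60 ± 0.15 in shIrf3. Its span lies inside that of another member, an 18-exon gene model listed on both strands (49559428 to 49748100), though no exons of uc007qjr.1 overlap those of any other gene model.

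The second was uc007rjd.2, also on chromosome 13 (88961077 to 89462830, 12 exons, plus strand), at lower levels. It had 3.71, 5.61 and 5.69 CPM in shLuc and 1.36, 1.43 and 2.07 with LPS. In shIrf3 it had 10.4, 11.8 and 11.9 CPM, and with LPS 2.65, 2.98 and 5.01. The values with LPS in shIrf3 thus reached into the range of shLuc without LPS. Its log2 fold change with LPS was -1.68 ± 0.24 (SE) in shLuc and -1.69 ± 0.21 in shIrf3.

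**Figure D3:**
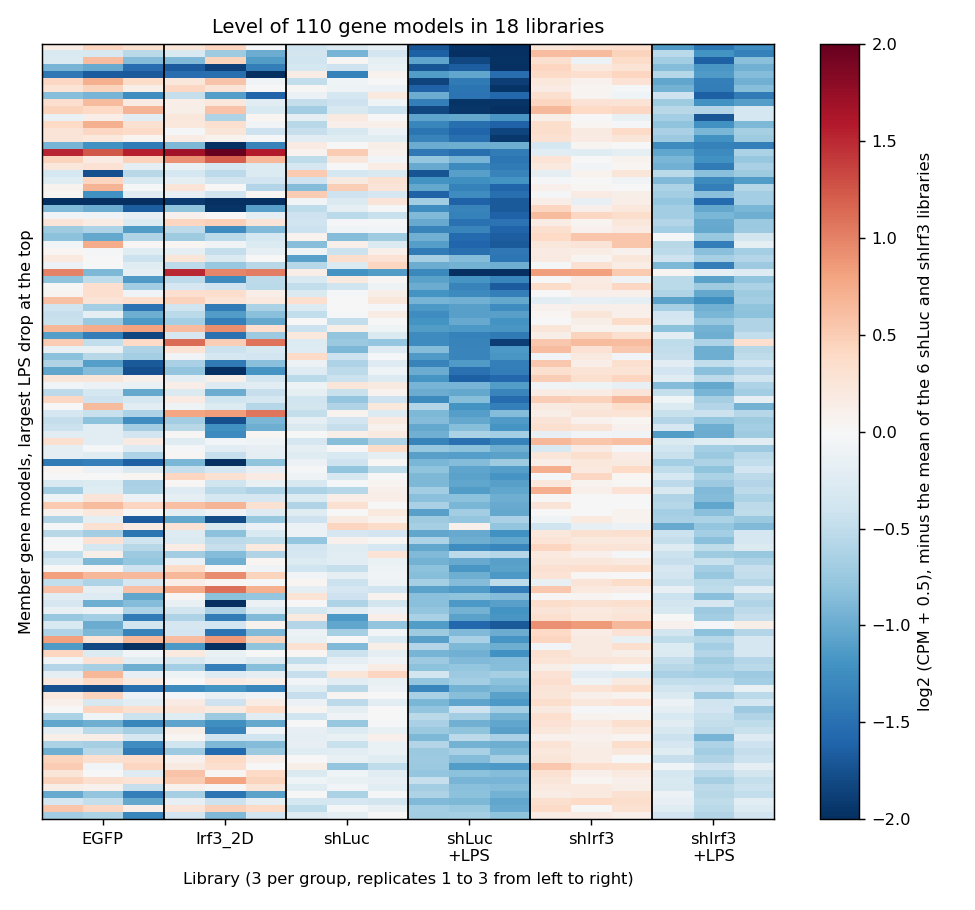
The log2 of CPM + 0.5 of each of the 110 members (rows, largest LPS drop at the top) in the 18 libraries (columns), relative to its mean over the 6 shLuc and shIrf3 libraries. The LPS columns are blue for nearly all rows, and the shIrf3 columns are redder than the shLuc columns for most.

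Knockdown of Irf3 without LPS is a contrast the rule did not use, though it rests on libraries that the rule used. Against shLuc, 40 of 110 members were higher in shIrf3 and 1 was lower, in edgeR's quasi-likelihood test with p adjusted by Benjamini-Hochberg over 14970 gene models and a threshold of 0.05. The background was 4.65% higher and 3.91% lower, or 5.51% and 4.42% of the 11351 gene models with the same minimum level. The 40 rose between 1.20-fold and 3.13-fold, with a median of 1.501-fold, and 6 of them at least 2-fold. The fitted change was upward in 95 of 110 members, with a median log2 fold change of 0.35 against -0.01 for the 11351. The CPM of shIrf3 lay wholly above those of shLuc in 62 members (background 15.0%) and wholly below in 4 (background 8.80%).

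Single libraries moved the number called. Without shIrf3 replicate 1 it was 22 (background 1.86%), without shIrf3 replicate 3 it was 25 (2.42%), and with all 18 libraries in one fit it was 24 (1.34%). Without shLuc replicate 1, the library with the high chromosome M share, 46 were higher (background 10.7%).

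uc009mys.2 rose most. It lies on chromosome 8 (98201985 to 98239019, 18 exons, plus strand) and had 5.09, 6.16 and 7.15 CPM in shLuc against 17.5, 20.1 and 21.1 in shIrf3. The log2 fold change was 1.64 ± 0.15 (SE, edgeR adjusted p = 1.46e-05). The next was uc012aaz.1 on chromosome 16 (5211912 to 5222392, 8 exons, minus strand), with 2.89, 2.95 and 4.27 CPM in shLuc and 7.93, 8.32 and 8.47 in shIrf3. Its log2 fold change was 1.25 ± 0.26 (edgeR adjusted p = 0.00982). Both calls held in every alternative run.

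The changes of some of the 8 members above 500 CPM in shLuc are given as values, taken by level after they were seen. The highest, on chromosome 6 (from 4455697), had a fitted log2 change of 0.68 ± 0.10 (SE, edgeR adjusted p = 0.000697) and under LPS of 0.64 ± 0.10 (edgeR adjusted p = 0.000907). The next, on chromosome 1 (from 71632097), had the larger spread given above, and its changes of 0.50 ± 0.25 and 0.80 ± 0.25 did not pass (edgeR adjusted p = 0.273 and 0.0901). An 11-exon gene model on chromosome 16 (37777141 to 37836602) passed under LPS, at 0.45 ± 0.10 (edgeR adjusted p = 0.0115), and not without LPS, at 0.19 ± 0.10 (edgeR adjusted p = 0.283).

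The 1 member lower with knockdown was uc007wau.1 on chromosome 15 (66722955 to 66754761, 5 exons, plus strand). Its CPM were 32.0, 37.9 and 40.9 in shLuc and 27.7, 28.2 and 28.6 in shIrf3, so that the fitted log2 change was -0.42 ± 0.12 (SE, edgeR adjusted p = 0.0403). The groups did not overlap, but the call ended in 12 of 21 alternatives, among them without shLuc replicate 1 (log2 fold change -0.29), shLuc replicate 3 (-0.44) or any one shIrf3 library (-0.44 to -0.40). With LPS the same gene model had 15.6, 16.2 and 16.6 CPM in shLuc and 13.4, 15.1 and 19.7 in shIrf3, where the groups overlapped (edgeR adjusted p = 0.964).

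Under LPS, knockdown was compared in the 6 other libraries of this arm. In shIrf3 with LPS 48 of 110 members were higher than in shLuc with LPS (background 4.90%, or 5.66% of the 11351). By edgeR 0 were lower (background 3.31%, or 3.94% of the 11351), and 0 by DESeq2 (3.87%) or limma-voom (3.25%). At an unadjusted p under 0.05, 2 were lower, with no background computed. The 48 rose between 1.18-fold and 3.27-fold, with a median of 1.56-fold, and 10 of them at least 2-fold. Upward fitted changes were found for 104 of 110, with a median log2 fold change of 0.48 against -0.01 for the 11351 gene models. In 69 members the shIrf3 libraries with LPS lay wholly above the shLuc libraries with LPS (background 17.9%), and in 1 wholly below (background 16.3%). The number higher was 28 without shIrf3_LPS replicate 1 (background 2.22%), 30 without shLuc_LPS replicate 3 (2.15%) and 27 with all 18 libraries in one fit (1.36%).

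The largest rise under LPS was that of uc007yxf.1 on chromosome 16 (31296278 to 31314682, 6 exons, minus strand). It had 11.1, 12.4 and 21.6 CPM in shLuc with LPS and 45.0, 47.1 and 55.6 in shIrf3 with LPS, and the fitted log2 change was 1.71 ± 0.41 (SE, edgeR adjusted p = 0.0376). Without LPS it had 23.1, 24.4 and 59.2 CPM in shLuc, the highest in replicate 1, and 77.4, 95.4 and 96.5 in shIrf3 (edgeR adjusted p = 0.0812). By edgeR its LPS changes, -1.32 ± 0.41 in shLuc and -0.90 ± 0.38 in shIrf3, did not pass (adjusted p = 0.0905 and 0.213). The call under LPS ended in 10 of 21 alternatives, with log2 fold changes from 1.54 to 1.77, among them without any one shIrf3 library, without any one shIrf3 library with LPS and without shLuc_LPS replicate 2 (1.60) or 3 (1.54). The second was uc009mys.2, with 3.08, 3.36 and 4.82 CPM in shLuc with LPS and 10.7, 11.7 and 12.02 in shIrf3 with LPS, and a fitted log2 change of 1.61 ± 0.16 (SE, edgeR adjusted p = 1.85e-05). Its libraries with LPS in shIrf3 lay above all shLuc libraries without LPS.

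The 2 knockdown comparisons share no library, but they come from one fit with a shared estimate of the spread. The LPS ratios link them, and the rule bounds both ratios, so their agreement is no independent support. The background gene models are not bounded in this way. Of the members, 34 were higher in both (background 2.58%), 6 without LPS only and 14 under LPS only, and 0 were higher in one and lower in the other. Being called in only one is no test of a difference. Across the 110 members the log2 fold changes of the comparisons had a Pearson correlation of 0.785 and a Spearman correlation of 0.678, against 0.686 and 0.616 over the 11351 gene models, as a description of points that share libraries and depth. Those higher in both numbered 19 without shIrf3 replicate 1, 22 without shIrf3 replicate 3 or shIrf3_LPS replicate 1, and 18 with all 18 libraries in one fit. The background of calls in both was not computed for these settings.

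**Figure D4:**
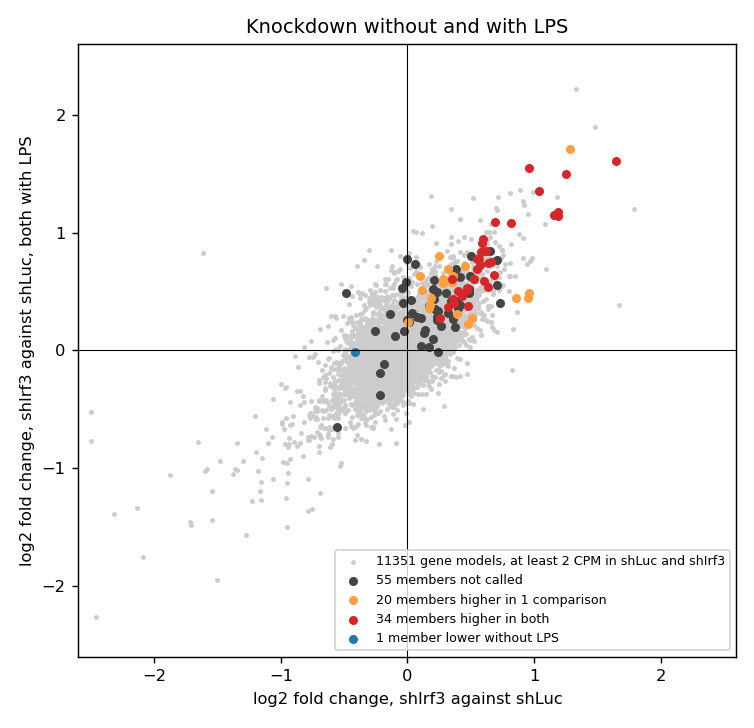
The fitted log2 fold change of shIrf3 against shLuc without LPS (x axis) and with LPS (y axis), for the 110 members in colour and the 11351 gene models of at least 2 CPM in grey, with values beyond 2.5 drawn at 2.5. Of the members, 34 are called higher in both (red), 20 in 1 comparison (orange) and 1 lower without LPS (blue).

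The level with LPS in shIrf3 was mostly below that of unstimulated control cells. The mean in shIrf3 with LPS was at or below that of shLuc without LPS in 100 members and above it in 10. The rule bears on this count, as it held the mean in shIrf3 with LPS to at most 0.67 times that without. No background was computed for it. The ratio with LPS was smaller in shLuc in 80 members and in shIrf3 in 30. This split depended on the scaling. The fitted difference was upward in 81 members in the main fit, against 48.98% of the 11351. With library totals only it was upward in 67, against 34.29%. For the difference between the LPS changes, edgeR called 0 members (background 0.00% in each direction). At an unadjusted p under 0.05, 9 were higher and 2 lower, with no background computed. DESeq2 called 1 (background 0.0802%) and limma-voom 0 (0.00%). Both LPS changes chose the members, so this is a description.

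The overexpression arm holds none of the libraries above. The Irf3_2D to EGFP ratio of the members had a median of 0.992, from the bound of the rule up to 2.99, against 1.02 over the 11351 gene models, and 52 of 110 were above 1. By edgeR 1 member was higher (background 0.811% of 13931 gene models) and 0 were lower (background 0.639%). DESeq2 (1.76%) and limma-voom (0.632%) also called 0 lower. At an unadjusted p under 0.05, 5 were lower, with no background computed. The rule bounds this contrast from below, so these counts are descriptive. The Irf3_2D libraries lay wholly above the EGFP libraries in 9 members (background 8.54%) and wholly below in 5 (background 8.56%). Without Irf3_2D replicate 2 there were 4 higher (background 3.32%) and 5 lower (background 3.85%), shares near the background. Without EGFP replicate 2 or 3 there were 0 higher (background 0.00709% and 0.00%), and without EGFP replicate 1 there were 2 (background 1.20%). The chi-square per degree of freedom was 111.8 between Irf3_2D replicates 1 and 2, 91.7 between 2 and 3 and 10.8 between 1 and 3.

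The member called higher had under 5 CPM in EGFP, so it falls outside the naming rule, and it was singled out after its values were seen. It lies on chromosome 8 (83866455 to 84648935, 28 exons, plus strand) and had 1.68, 1.95 and 2.13 CPM in EGFP and 5.29, 5.47 and 6.47 in Irf3_2D. The log2 fold change was 1.58 ± 0.19 (SE, edgeR adjusted p = 0.0133).

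Of the members with at least 5 CPM in EGFP and no overlap, uc008rnd.2 on chromosome 3 (137880737 to 137895006, 9 exons) had the highest ratio, 1.42. It had 25.1, 42.6 and 42.7 CPM in EGFP and 46.8, 48.0 and 61.4 in Irf3_2D (edgeR adjusted p = 0.491). This gene model was also higher with knockdown, from 21.5, 22.4 and 25.1 CPM in shLuc to 31.8, 32.7 and 41.7 in shIrf3 (edgeR adjusted p = 0.00756). uc007eds.2 on chromosome 1 (194670682 to 194681946, 5 exons) had a ratio of 1.35, with 17.9, 19.8 and 21.74 CPM in EGFP and 24.6, 25.01 and 30.7 in Irf3_2D (edgeR adjusted p = 0.253). Neither difference passed the test.

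The lowest ratios of this kind were 0.693 and 0.755. They belonged to uc009ukc.2 on chromosome X (135744583 to 135772874, 9 exons) and uc008woq.1 on chromosome 5 (20989665 to 21151423, 25 exons listed on both strands). No exons of uc008woq.1 overlapped those of another gene model, but its reads from opposite strands cannot be told apart. uc009ukc.2 had 7.48, 8.21 and 8.92 CPM in EGFP and 5.06, 5.93 and 6.07 in Irf3_2D (edgeR adjusted p = 0.188). For uc008woq.1 the values were 22.3, 24.2 and 24.9 CPM in EGFP and 13.8, 18.2 and 21.9 in Irf3_2D (edgeR adjusted p = 0.520), and without Irf3_2D replicate 2 it was called lower (log2 fold change -0.62, edgeR adjusted p = 0.0172). uc008woq.1 was higher with knockdown, at 13.3, 14.7 and 16.9 CPM in shLuc and 21.0, 23.8 and 24.2 in shIrf3 (edgeR adjusted p = 0.00249).

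The 34 members higher in both knockdown comparisons had a median Irf3_2D to EGFP ratio of 1.10, and 20 of them were above 1. The 56 members not higher in either had a median of 0.984, with 23 above 1. These are descriptions of classes made from the other arm, and their difference was not tested. Knockdown and Irf3_2D log2 fold changes had Spearman correlations over the members of 0.0949 without LPS and 0.163 under LPS. Over 11349 gene models these were higher, at 0.257 and 0.319. The rule bounds the Irf3_2D ratio of the members alone, so these correlations are not matched.

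**Figure D5:**
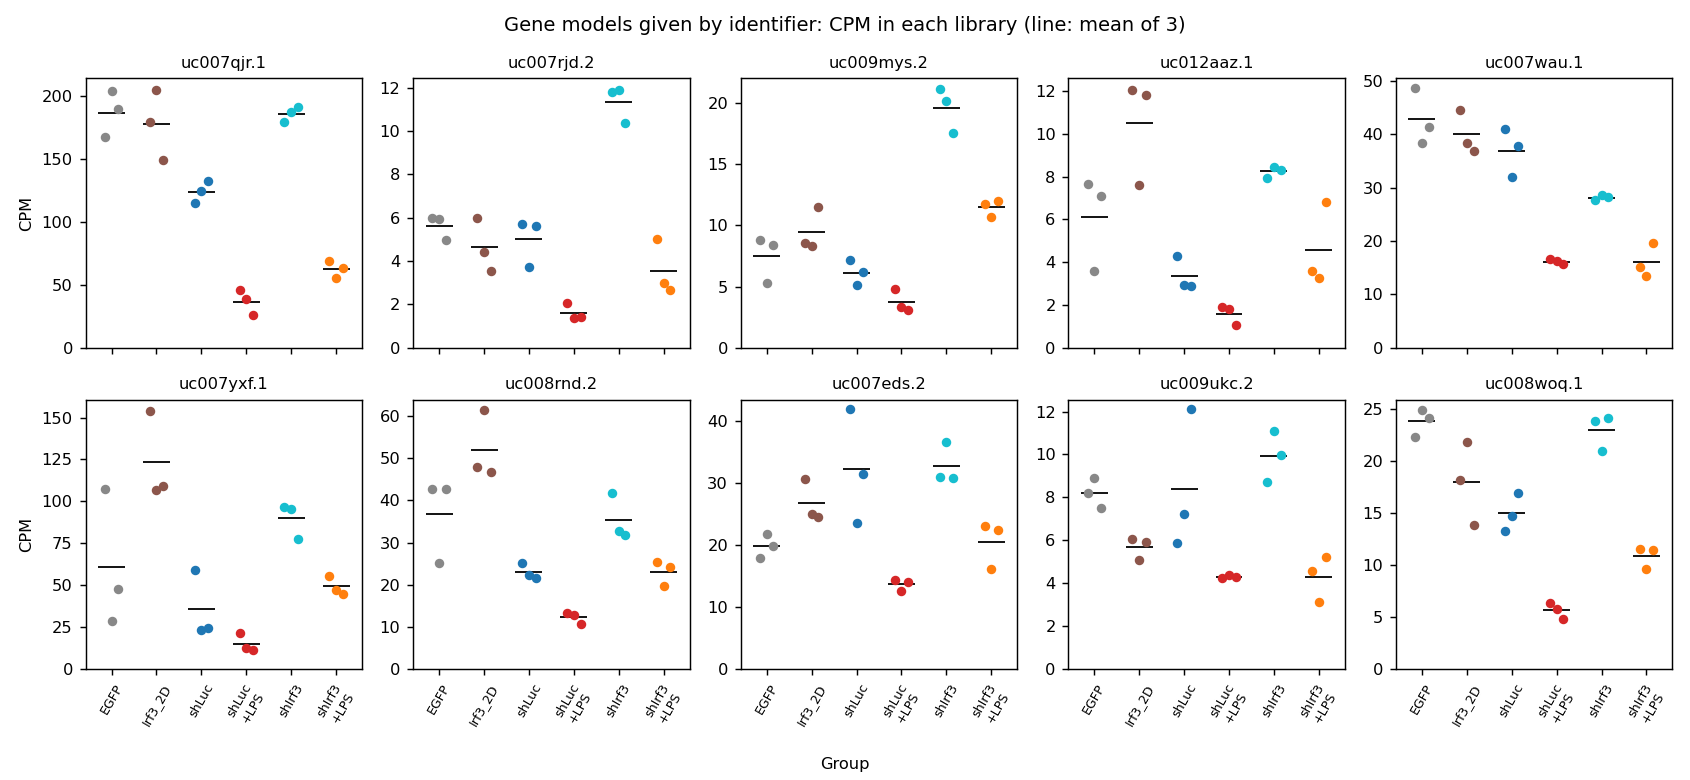
CPM in each of the 18 libraries for the 10 members given by identifier, with 1 point per library and a line at the mean of 3. Each panel has its own axis from 0. The LPS groups lie below their matching groups in all 10, a direction that the rule fixed for the means. The unstimulated shIrf3 libraries lie wholly above the shLuc libraries in 7, and some of these were named for a rise with knockdown.

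Within some groups the same replicate was lowest for most members. In shIrf3 with LPS, replicate 2 had the lowest CPM of the 3 for 89 of 110 members, against 35.1% of the 11351 gene models, and a median of 0.875 times the mean of its group. In shLuc with LPS, replicate 3 was lowest for 76 members, against 38.5%, and in EGFP replicate 3 was lowest for 77, against 48.5%. In shIrf3 the lowest library was replicate 1 for 31 members, replicate 2 for 39 and replicate 3 for 40. The coefficient of variation within a group had a median over the members of 12.9% for shLuc_LPS and 12.7% for shIrf3_LPS, the groups with LPS, against 4.72% and 5.39% over the 11351. In shIrf3 it was 7.20% against 4.41%, and in shLuc 17.2% against 11.7%. The rule chose members on means of these libraries, and 90 of them met it without shIrf3_LPS replicate 2. The members also had lower levels, with medians of 11.6 against 36.0 CPM in shLuc_LPS and 17.6 against 35.5 in shIrf3_LPS. The replicate order and spread are therefore not matched to the 11351 for selection or level. Leaving out shIrf3_LPS replicate 2, 54 members were higher with knockdown under LPS (background 4.28%) and the median log2 fold change with LPS in shIrf3 was -0.78, against -0.87 with all libraries.

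Features of the gene models were not used by the rule. The members had a median exon length of 4120 bases, against 3565 over the 11351, and a median of 9 exons against 10. Their median genomic span was 31.7 kb against 24.0 kb, and 29 members (26.4%) spanned at least 100 kb, against 12.9%. Exons on both strands were listed for 5 members (4.55% against 10.4%), and exons of 3 (2.73% against 8.49%) overlapped those of another gene model. Chromosome 1 held 17 members (2.59% of its gene models with the same minimum level), chromosome 13 held 9 (2.16%) and chromosome 4 held 1 (0.137%). No set test was run on these counts.

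In 5 places members were neighbours within 100 kb. On chromosome 6 a single-exon and a 5-exon member lay on the minus strand, 128 bases apart. They had 514 ± 73.1 and 874 ± 141 CPM in shLuc and 218 ± 23.0 and 386 ± 58.9 with LPS (SD, n = 3). On chromosome X a single-exon and a 9-exon member lay 480 bases apart, also both on the minus strand, with 6.48 and 21.704 CPM in shLuc and 2.19 and 7.73 with LPS. Whether such pairs are parts of one gene is not given in the table. Pairs on opposite strands lay on chromosome 10 (987 bases apart) and chromosome 14 (4211 bases apart), and the remaining pair was the overlapping one on chromosome 13.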

How the data were processed

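The authors deposited unnormalized whole-number counts of reads for each gene model in 18 libraries, per the file headers with exon positions, strand and exon length. The submitters' processing notes name featureCounts 1.4.6, edgeR, TopHat2 2.0.14, SAMtools 0.1.19, bcl2fastq 2.17.1.14, Picard 2.2.4 and build mm9, with settings not given in the sources used here. Per the labels' protocols, 70 ng of total RNA was depleted of ribosomal RNA, and the library kit does not mark the strand.

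Libraries were grouped by their titles. CPM are over counts outside chromosome M. Tests used edgeR 4.0.16 in R 4.3.3 (filterByExpr, TMM, glmQLFit with robust estimation, glmQLFTest) on the whole table, with the 4 hairpin groups in one fit and the overexpression arm in another, and adjustment over all gene models tested. Each standard error is the size of the log2 fold change over the root of F. The step was tested on simulated counts. Alternatives included limma-voom (limma 3.58.1), DESeq2 1.42.0, other scalings, filters, sets of libraries and rule settings.

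Members, lists and tests were chosen with earlier results of these data known. Identifiers were printed for the 2 members with the largest mean log2 LPS ratio drop, the 2 called higher and 2 called lower with the largest fitted change in each knockdown comparison, and the 2 highest and 2 lowest Irf3_2D to EGFP ratios, each without overlap of CPM and with at least 5 CPM (without LPS, in the higher group and in EGFP, respectively). Without symbols the gene and marker lists were not used. Same-numbered libraries of the groups compared did not consistently deviate together (correlations from -0.26 to 0.30 over 5 pairs of groups), so the fits have no block.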

Additional observations from a re-analysis of the deposited data

How the results depend on the processing

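The counts of members higher with knockdown, 40 without and 48 under LPS, stayed within 1.5 times under library totals only, RLE factors, no filter on low counts, DESeq2, limma-voom, the replicate block, no chromosome M gene models and only the 6 libraries compared, and fell to 24 and 27 with all 18 libraries in one fit. Over the settings within 1.5 times, the background ran from 1.63% to 5.86% without LPS and from 3.28% to 10.2% under LPS. With all 18 libraries it was 1.34% and 1.36%. Leaving out each library gave 22 (background 1.86%) to 46 (10.7%) without LPS and 28 (2.22%) to 62 (8.76%) under LPS. The cause was not tested. The replicate number does not pair the samples. As a block it gave 44 higher without LPS (background 5.08%) and 51 under LPS (5.05%). With Irf3_2D the block gave 2 higher (background 1%), against 1 in the main fit (0.811%). Members lower with knockdown without LPS numbered 1 (background 3.91%), and 2 with DESeq2 (4.55%) or limma-voom (3.52%). They numbered 0 with library totals only, with the 6 libraries compared or with all 18 (background 1.22% to 2.30%). With a library left out they numbered 0 to 2 (background 1.48% to 7.38%). Under LPS they numbered 0 (background 3.31%), 1 with the 6 libraries compared (9.22%) and 0 with any library left out (1.30% to 6.00%). Called members for the difference of the LPS changes were 1 in DESeq2 (background 0.0802%) and 0 to 1 with a library left out (0.00% to 0.105%). For Irf3_2D, 1 was lower with all 18 libraries (background 3.17%). Leaving out a library gave 0 to 4 higher (background 0.00% to 3.32%) and 0 to 5 lower (0.0351% to 3.85%). Calls lower with LPS ranged from 82 to 102 in shLuc (background 2.41% to 7.58%) and from 80 to 105 in shIrf3 (2.12% to 7.52%) with a library left out. The rule itself gave 98 members with CPM over all counts, 121 with TMM-scaled CPM, 100 with medians and 92 with a minimum of 5 CPM. A ratio of 0.5 gave 22 and one of 0.75 gave 215. Leaving out each of the 18 libraries gave 91 to 125, of which 90 to 110 were among the 110. No call of a named member changed direction in any alternative. Counting limits low members: the lowest count was 7.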

Other observations

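The unstimulated controls of the arms, shLuc and EGFP, differ in vector and may differ in other steps, which cannot be told apart. The ratio of mean CPM between them had a median of 1.01 over the 110 members and over the 11351 gene models with the same minimum level. It was 2 or more in 8 members and 0.5 or less in 2. The highest was 7.19, in a 6-exon gene model on chromosome 12 (110691033 to 110701546) with 2.46 ± 0.792 CPM (SD, n = 3) in EGFP and 17.7 ± 3.47 in shLuc. The lowest was 0.431, in a 6-exon gene model on chromosome 6 (135312949 to 135333191) with 420 ± 46.6 CPM in EGFP and 181 ± 31.9 in shLuc. Both gene models were singled out after their values were seen.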
